A study of Rattus norvegicus with 10 samples.

Results

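Mcts1, Denr and Eif2d are the 3 reinitiation factor genes described here, out of 32545 genes counted in RNA of microdissected CA1 tissue from hippocampal slices of rats. The members were the rows whose gene name is Mcts1 (ENSRNOG00000002563), Denr (ENSRNOG00000001106) or Eif2d (ENSRNOG00000004910), with 1 row each. Mcts1 was chosen by its low level in the libraries treated with SKF alone, Denr was added as its protein partner and Eif2d as the related factor. All 3 members passed the filter on low counts, as did 15032 genes of the table.

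After a ribosome has translated a short upstream reading frame, its small subunit may keep scanning and start again at the main start codon, which is called reinitiation. MCTS1 and DENR form a heterodimer that binds the small subunit, helps to remove the used tRNA during recycling and supports reinitiation on such transcripts. EIF2D carries in a single protein the domains that MCTS1 and DENR hold between them. In neurons DENR has been linked to brain development, and control of initiation through eIF2 is known for its part in long-lasting plasticity and memory.

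The slices came from Wistar rats, given in the study's methods as male animals of 5 to 7 weeks. Slices received an agonist of the dopamine D1 and D5 receptors (SKF), or SKF with amyloid-beta(1-42) oligomers at 200 nM (SKF+Aβ). The empty carbon nanosphere CSP was added to the latter in the next group (SKF+Aβ+CSP). In a further group the same particle carried TTK21, which activates the histone acetyltransferases CBP and p300 (SKF+Aβ+CSP-TTK21). The last group received CSP-TTK21 and neither SKF nor Aβ (CSP-TTK21 alone), and both particles were used at 0.36 μg/ml. Each of the 5 groups has 2 libraries, and according to the methods every repeat used 2 slices from 2 biological samples, so a library may hold RNA of more than 1 animal. Slices were collected 1 h after treatment, and untreated slices are not analysed here.

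Total counts ran from 6753742 to 8473407 per library, at which 3 counts correspond to 0.354 to 0.444 CPM, the count scaled to the library total. Of the markers of CA1 pyramidal neurons 4 of 5 had a row in the table, Fibcd1 was listed at 0, and their summed level was 349 to 710 normalized CPM. Markers of dentate granule cells summed to 197 to 300, and those of oligodendrocytes to 9685 to 22244. Mitochondrial genes took 3.60% and 5.55% of the counts in the SKF libraries, below the 5.91% to 7.74% of the other 8. In such bulk samples fewer cells of a type and less RNA per cell cannot be told apart.

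Mcts1 was read at fewer counts in the SKF libraries than in every other library. The counts were 50 and 66 in SKF, 203 and 177 under SKF+Aβ, 174 and 128 under SKF+Aβ+CSP, 208 and 118 under SKF+Aβ+CSP-TTK21, and 116 in both libraries of CSP-TTK21 alone. Scaled to the library totals and TMM factors, the levels were 6.91 and 8.81 normalized CPM in SKF, 28.4 and 26.4 under SKF+Aβ, 20.6 and 18.8 under SKF+Aβ+CSP, 26.6 and 16.8 under SKF+Aβ+CSP-TTK21, and 16.3 and 15.5 under CSP-TTK21 alone. The SKF libraries were thus below all 8 others, by the choice of the gene, and the libraries of SKF+Aβ+CSP-TTK21 lay furthest apart. For counting error only and before TMM scaling, the exact 95% intervals of the SKF libraries were 5.24 to 9.30 and 6.75 to 11.1 CPM. Summed over all genes, squared differences between replicates were 4.97 to 12.6 times those of counting noise (chi-square per degree of freedom). That is not a value for Mcts1 itself.

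**Figure D1:**
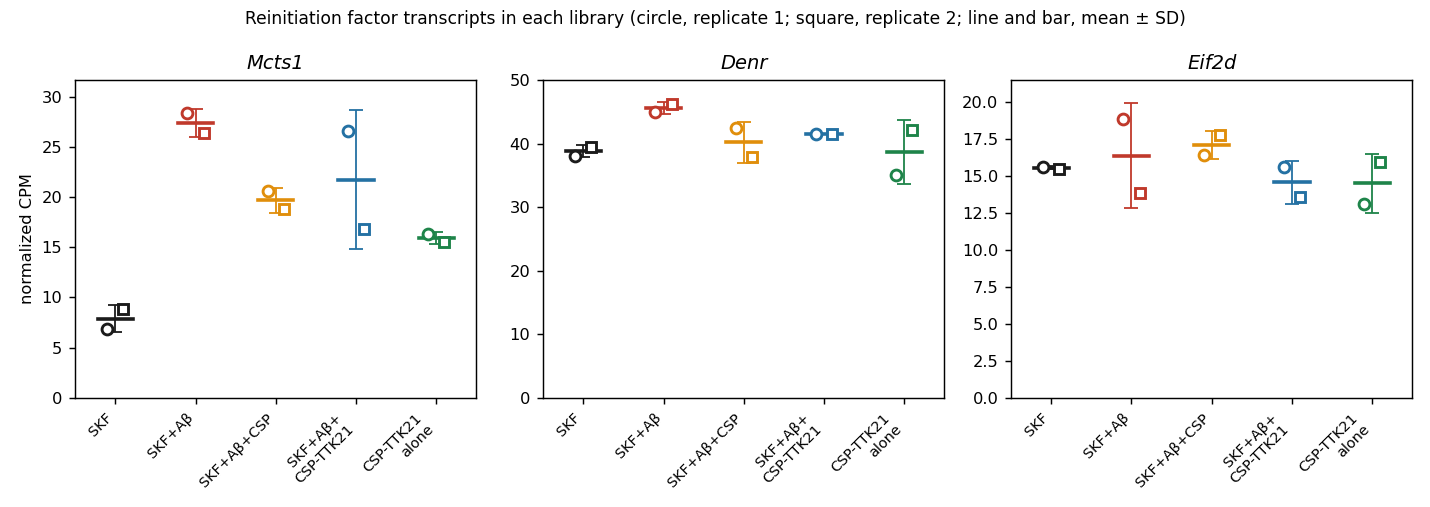
Normalized CPM (vertical axes, from 0, a separate scale for each gene) of Mcts1, Denr and Eif2d in the 10 libraries by treatment group (horizontal axes). Circles are replicate 1, squares replicate 2, and lines with bars the mean ± SD of the 2 libraries. Mcts1 runs from 6.91 in SKF to 28.4 under SKF+Aβ, while the highest library of Denr is 1.32 times and that of Eif2d 1.44 times its lowest.

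The group means of Mcts1 were 7.86 ± 1.34 normalized CPM in SKF, 15.9 ± 0.575 under CSP-TTK21 alone, 19.7 ± 1.27 under SKF+Aβ+CSP, 21.7 ± 6.91 under SKF+Aβ+CSP-TTK21 and 27.4 ± 1.40 under SKF+Aβ (SD, n = 2 libraries each). In this order the values of SKF+Aβ+CSP lie between those of SKF+Aβ+CSP-TTK21, whose higher library also passes the lower library of SKF+Aβ, so these neighbours were not separated. As a description without a test, since this contrast chose the gene, the fitted log2 fold change of Mcts1 over SKF was 1.80 under SKF+Aβ, 1.32 under SKF+Aβ+CSP, 1.47 under SKF+Aβ+CSP-TTK21 and 1.01 under CSP-TTK21 alone. These correspond to 3.47-fold, 2.50-fold, 2.76-fold and 2.02-fold, and they share the same 2 SKF libraries.

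Comparisons of Mcts1 that leave out the SKF libraries address whether the particle, with or without TTK21, and the combination of SKF with Aβ went with a different level. Adding empty CSP to SKF+Aβ went with a log2 fold change of -0.48 (SE 0.212, 95% interval -0.93 to -0.02, n = 2 against 2). The quasi-likelihood test of edgeR, adjusted over all genes by Benjamini-Hochberg, gave an adjusted p of 0.9997 from an unadjusted p of 0.0419. Of all genes tested 0% were called there, at an adjusted p under 0.05, and 2.18% had an unadjusted p under 0.05. CSP-TTK21 in place of no particle on SKF+Aβ gave -0.33 (95% interval -0.78 to 0.12, adjusted p = 0.774 by edgeR), and CSP-TTK21 against empty CSP gave 0.15 (95% interval -0.31 to 0.60, adjusted p = 0.836 by edgeR). In both the libraries overlapped. Leaving out replicate 1 or replicate 2 of SKF+Aβ+CSP-TTK21 gave -0.70 and -0.05 for the former and -0.22 and 0.43 for the latter. SKF+Aβ+CSP-TTK21 against CSP-TTK21 alone gave 0.45 (95% interval -0.02 to 0.92, adjusted p = 0.963 by edgeR). This last value rested on replicate 1 of SKF+Aβ+CSP-TTK21, being 0.08 without it and 0.73 without replicate 2. In the F-test over the 4 groups other than SKF, Mcts1 had an F of 4.60 with an adjusted p of 0.822 by edgeR (unadjusted p = 0.0202), where 0% of genes were called and 5.63% had an unadjusted p under 0.05.

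Summed CA1 pyramidal markers were 710 normalized CPM in replicate 1 and 447 in replicate 2 of SKF+Aβ+CSP-TTK21, and 660 and 456 under SKF+Aβ. In SKF+Aβ+CSP they were 442 and 485, and in CSP-TTK21 alone 461 and 349. The library with more of these markers also had more Mcts1 in 4 of the 5 groups, the exception being SKF+Aβ+CSP. Oligodendrocyte markers followed Mcts1 in the same 4 groups, and astrocyte markers in 4 of 5, except CSP-TTK21 alone. Markers of neurons in general ran the opposite way in all 5 groups. The agreement was thus not particular to CA1 pyramidal markers, and it was not tested. The CA1 pyramidal markers of the SKF libraries were 407 and 581, within the range of the other 8 libraries. Interneuron markers were 349 and 356 in SKF against 357 to 507 elsewhere. The part of these markers and of the mitochondrial share in the level of Mcts1 was not tested.

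Denr, which encodes the other subunit of the heterodimer, had libraries within 1.32-fold of each other and was not called in any comparison. Its counts were 276 and 296 in SKF, 322 and 311 under SKF+Aβ, 360 and 259 under SKF+Aβ+CSP, 325 and 292 under SKF+Aβ+CSP-TTK21, and 250 and 316 under CSP-TTK21 alone. The group means were 38.7 ± 5.0 normalized CPM under CSP-TTK21 alone, 38.8 ± 0.963 in SKF, 40.2 ± 3.23 under SKF+Aβ+CSP, 41.6 ± 0.0597 under SKF+Aβ+CSP-TTK21 and 45.7 ± 0.970 under SKF+Aβ (SD, n = 2). SKF+Aβ stood highest in mean, while the other 4 groups differed in mean by less than the range of CSP-TTK21 alone. Over SKF the log2 fold change of Denr was 0.23 under SKF+Aβ (SE 0.147, 95% interval -0.08 to 0.55), with an adjusted p of 0.359 by edgeR. It was 0.05 under SKF+Aβ+CSP, 0.10 under SKF+Aβ+CSP-TTK21 and -0.00 under CSP-TTK21 alone. Without SKF it was -0.18 for empty CSP and -0.14 for CSP-TTK21 over SKF+Aβ, 0.05 for CSP-TTK21 over empty CSP, and 0.10 for SKF+Aβ+CSP-TTK21 over CSP-TTK21 alone. The 95% intervals of the 8 comparisons of Denr together ran from 0.709-fold to 1.46-fold, so changes of that size in Denr cannot be told from none here.

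Eif2d, whose product can carry out recycling and reinitiation steps on its own, differed little between the treatments beside the spread of its libraries. Its counts were 113 and 116 in SKF, 135 and 93 under SKF+Aβ, 139 and 121 under SKF+Aβ+CSP, 122 and 95 under SKF+Aβ+CSP-TTK21, and 93 and 119 under CSP-TTK21 alone. SKF+Aβ thus held both a library at the lowest count, 93, and one near the highest, 139. The group means were 14.5 ± 2.0 normalized CPM under CSP-TTK21 alone, 14.6 ± 1.45 under SKF+Aβ+CSP-TTK21, 15.6 ± 0.0956 in SKF, 16.4 ± 3.53 under SKF+Aβ and 17.1 ± 0.929 under SKF+Aβ+CSP (SD, n = 2). SKF stood in the middle of this order, and no neighbours differed beyond the spread of SKF+Aβ. The log2 fold change over SKF was 0.07 under SKF+Aβ, 0.13 under SKF+Aβ+CSP, -0.09 under SKF+Aβ+CSP-TTK21 and -0.10 under CSP-TTK21 alone. The largest of its 8 values was that of CSP-TTK21 against empty CSP on SKF+Aβ, with -0.23 (95% interval -0.66 to 0.21, adjusted p = 0.731 by edgeR), where the sign stayed in all 18 alternatives run. The other comparisons without SKF gave 0.06 for empty CSP and -0.17 for CSP-TTK21 over SKF+Aβ, and 0.01 for SKF+Aβ+CSP-TTK21 over CSP-TTK21 alone. The 95% intervals over the 8 comparisons ran from 0.633-fold to 1.48-fold, so changes of that size in Eif2d cannot be told from none at this depth and replication.

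**Figure D2:**
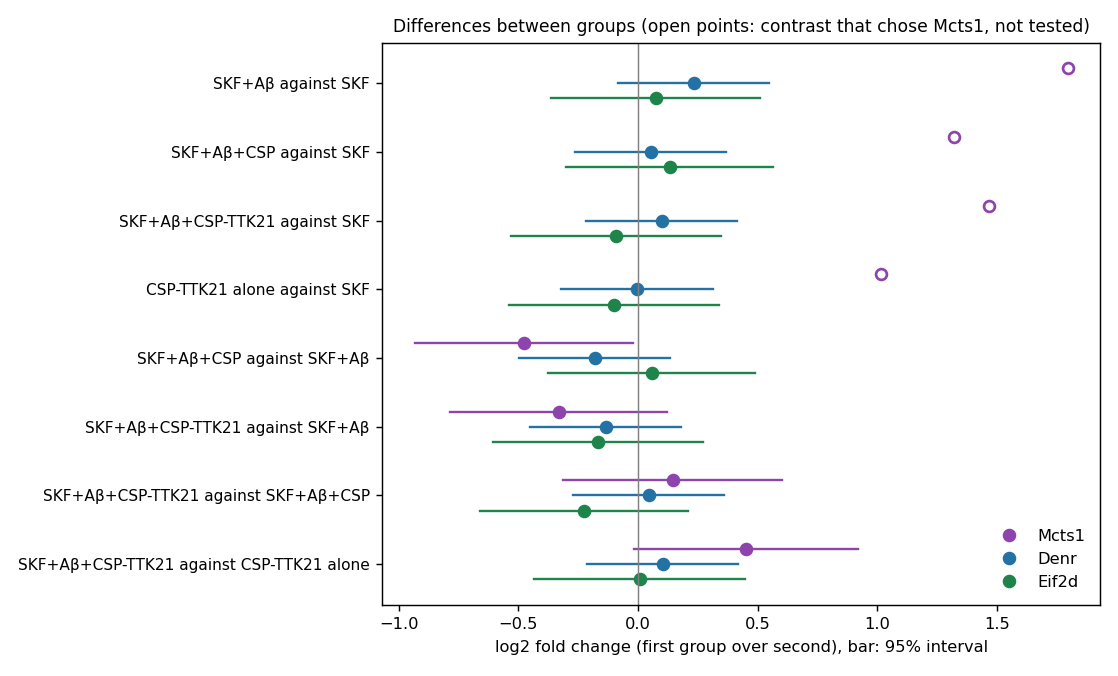
Log2 fold change of the first group over the second (horizontal axis) for Mcts1, Denr and Eif2d in the 8 comparisons (vertical axis), from the edgeR fit of all 10 libraries, with bars for the 95% interval of tested values. Open points without a bar mark the contrast that chose Mcts1, which was not tested. Every interval of Denr and Eif2d crosses 0, and the Mcts1 difference of SKF+Aβ+CSP against SKF+Aβ is -0.48.

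Across the 20 tests of single comparisons, 0 were called by edgeR, and likewise by DESeq2 and limma, except that DESeq2 gave no adjusted p for Eif2d in SKF+Aβ+CSP-TTK21 against SKF, and 1 of the 20 had an unadjusted p under 0.05. In the same fit, 2.08% of all genes tested were called under SKF+Aβ against SKF, 0.02% under SKF+Aβ+CSP against SKF and 0.00665% under SKF+Aβ+CSP-TTK21 against SKF. The share was 0% under CSP-TTK21 alone against SKF and in the 4 comparisons without SKF. Unadjusted p-values under 0.05 were common against SKF, at 22.8%, 19.3%, 19.6% and 7.78% of genes in the same order of groups, and made up 2.18% to 8.78% without SKF. In the F-test over all 5 groups, 0.00665% of genes were called, and Denr had an adjusted p of 0.734 and Eif2d one of 0.862 by edgeR. With 2 libraries against 2 an exact permutation test of 1 gene cannot reach a p of 0.05, so these tests rest on the spread that edgeR estimated over all genes and groups.

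Counted against its partner within the same library, Mcts1 gave 18.1 and 22.3 reads per 100 Denr reads in SKF. The ratio was 63.0 and 56.9 under SKF+Aβ, 48.3 and 49.4 under SKF+Aβ+CSP, 64.0 and 40.4 under SKF+Aβ+CSP-TTK21, and 46.4 and 36.7 under CSP-TTK21 alone. These ratios need no scaling between libraries. Their group mean was 20.2 in SKF against 41.6 to 60.0 elsewhere. This follows from the choice of Mcts1 by its low level in SKF, with Denr libraries within 1.32-fold of each other, and is a description only. Eif2d gave 40.9 and 39.2 reads per 100 Denr reads in SKF, within the 29.9 to 46.7 of the other libraries. Against Eif2d, Mcts1 gave on average 50.6 reads per 100 in SKF and 111 to 170 in the other groups, which the same choice of the gene fixed. Read ratios between genes depend on transcript length and do not give the ratio of molecules, so only their change between libraries is described.

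**Figure D3:**
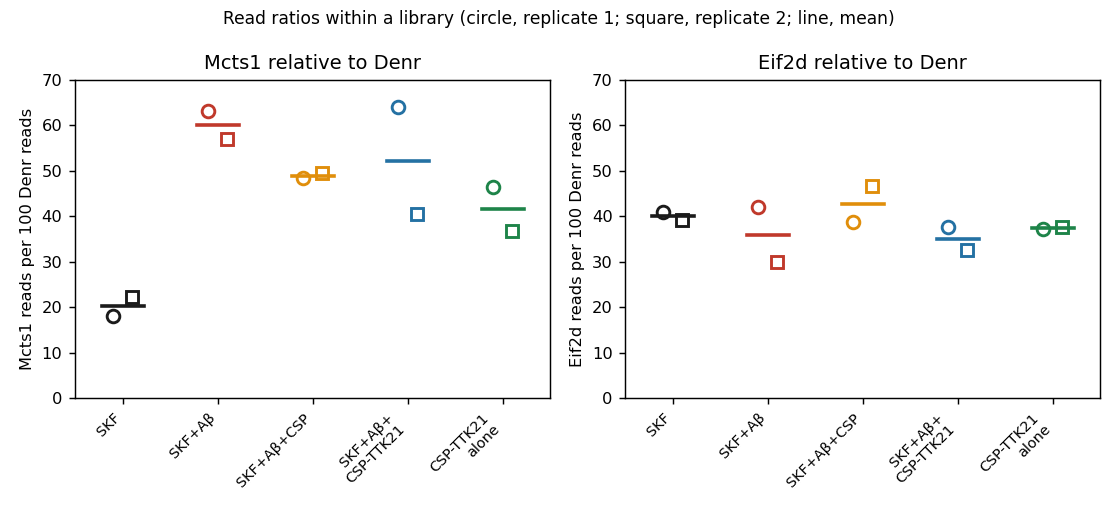
Reads of Mcts1 (left) and of Eif2d (right) per 100 reads of Denr in the same library (vertical axes, from 0) by treatment group (horizontal axes). Circles are replicate 1, squares replicate 2 and lines group means. Mcts1 per Denr averages 20.2 in SKF and at least 41.6 in the other groups, and Eif2d per Denr averages 35.0 to 42.7 throughout.

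Over the 10 libraries the coefficient of variation of normalized CPM was 39.2% for Mcts1, 8.23% for Denr and 11.6% for Eif2d. Without the SKF libraries it was still 24.5% for Mcts1, whose highest library then had 1.83 times the lowest. Pearson's r of log2 normalized CPM was 0.572 between Mcts1 and Denr, 0.162 between Mcts1 and Eif2d and 0.237 between Denr and Eif2d, and without SKF 0.628, 0.374 and 0.258. These values describe 10 or 8 libraries that share treatments and scaling.

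The gene most like Mcts1 among 11492 with a mean of at least 5 normalized CPM was Trhde, which encodes the ectoenzyme that degrades thyrotropin-releasing hormone, with r = 0.974 over the 10 libraries. It was followed by Fbxo11, a substrate adaptor of an SCF ubiquitin ligase (0.966), Dock11, an activator of the GTPase Cdc42 (0.964), Ash1l, a histone H3 lysine methyltransferase (0.962), and Zfp788, a zinc finger gene (0.961). In SKF these genes were at 75.9%, 65.4%, 52.3%, 80.0% and 58.6% of their mean in the other libraries. Dock11 for example had 18.2 and 19.2 normalized CPM in SKF and 27.9 to 47.4 elsewhere. All 5 have their lowest values in the 2 SKF libraries, as Mcts1 does, and all were picked for the likeness. The SKF libraries that chose Mcts1 entered this ranking, so low levels of these genes in SKF follow in part from that choice. Over the other 8 libraries r with Mcts1 was 0.926 for Trhde, 0.873 for Fbxo11, 0.877 for Dock11, 0.906 for Ash1l and 0.830 for Zfp788. Denr was most like Sec11a, a signal peptidase subunit (r = 0.900), and Fbxo18, a DNA helicase (0.898). Eif2d was most like P2ry1, a purinergic receptor (0.915), and Diexf, a nucleolar factor (0.913). In SKF these 4 genes were at 91.0% to 97.6% of their mean elsewhere. Their r-values too are the highest picked among 11492 genes over 10 libraries, and were not tested.

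**Figure D4:**
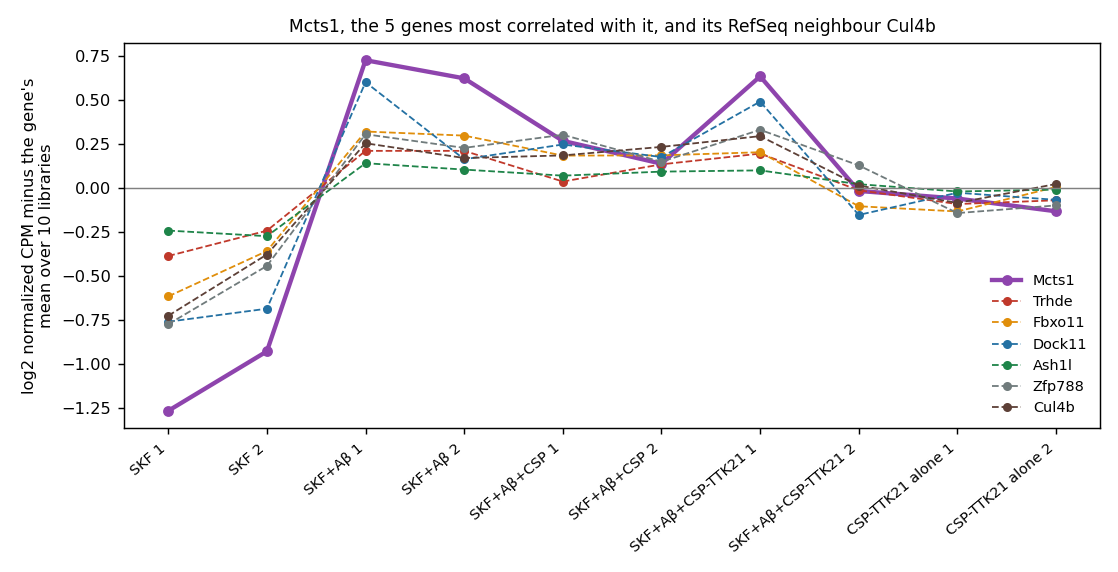
Log2 normalized CPM minus the gene's own mean over the 10 libraries (vertical axis) for Mcts1 (thick line), the 5 genes most correlated with it and its neighbour Cul4b, in each library (horizontal axis). The lines join libraries for legibility only. The genes have their lowest values in the SKF libraries, and Mcts1 spans the widest range.

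In the RefSeq order of genes of assembly GRCr8, used for names and neighbours only, Cul4b and C1galt1c1 are the nearest genes with a row in the table on either side of Mcts1. Cul4b, the scaffold of a ubiquitin ligase, had 26.7 and 34.0 normalized CPM in SKF and 41.8 to 54.5 in the other libraries. It rose over SKF under SKF+Aβ, with a log2 fold change of 0.76 and an adjusted p of 0.0415 by edgeR, which passed the threshold in only 4 of the 10 fits that left out 1 library and had an adjusted p of 0.169 without replicate 1 of SKF. In the other comparisons with SKF, Cul4b gave 0.76 under SKF+Aβ+CSP, 0.71 under SKF+Aβ+CSP-TTK21 and 0.52 under CSP-TTK21 alone, with adjusted p-values of 0.066, 0.0963 and 0.633 by edgeR. C1galt1c1, the chaperone of a mucin glycosyltransferase, had 11.8 and 14.3 in SKF and 13.9 to 24.4 elsewhere, and its log2 fold change over SKF under SKF+Aβ was 0.73 with an adjusted p of 0.0707 by edgeR. Whether reads of these genes bear on the row of Mcts1 was not tested, because the use of the strand in counting is not given in the sources used here. Beside Denr, Ccdc62 had 10.4 and 5.87 in SKF and 8.18 to 14.4 elsewhere, and Hip1r had 110 in both SKF libraries and 62.3 to 98.3 elsewhere. Hcar2 and Kntc1, further off, were at 2.05 to 7.08 and 3.07 to 5.86 in all libraries. Beside Eif2d, Rassf5 had 20.3 and 15.0 in SKF and 9.64 to 16.3 elsewhere, Dyrk3 had 8.57 and 11.7 against 10.8 to 14.0, and Ikbke 4.56 and 6.14 against 4.09 to 7.60. None of these 7 genes was called in a comparison with SKF, and the lowest adjusted p by edgeR among them was 0.0899 for Hip1r. The other neighbours with a row, 6030498E09Rikl and Hcar1, were at 0 to 0.134 and did not pass the filter. RefSeq lists Mcts2 and the pseudogenes Mcts1-ps1, Mcts1-ps2 and Eif2d-ps2, none with a row of that name in the table, so reads of near-identical copies may have been counted on the members or dropped.

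CBP and p300, which TTK21 activates, are recruited by CREB, the transcription factor downstream of the D1 and D5 receptors, and the promoters are shown for that reason. The RefSeq table of promoters (GRCr8) matched Denr and Eif2d, and Mcts1 has no entry. The 250 bases before the start of transcription are printed 5′ to 3′ in the direction of the gene, for Denr from the minus strand of chr12:38344741-38344990 and for Eif2d from the plus strand of chr13:45167927-45168176. Capitals mark the short CREB motif TGACG or its reverse complement CGTCA.
Denr: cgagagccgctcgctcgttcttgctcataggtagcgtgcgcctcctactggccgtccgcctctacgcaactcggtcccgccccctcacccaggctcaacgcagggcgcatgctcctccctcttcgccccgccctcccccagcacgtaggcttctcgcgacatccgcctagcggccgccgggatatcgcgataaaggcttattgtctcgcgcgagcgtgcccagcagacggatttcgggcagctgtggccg
Eif2d: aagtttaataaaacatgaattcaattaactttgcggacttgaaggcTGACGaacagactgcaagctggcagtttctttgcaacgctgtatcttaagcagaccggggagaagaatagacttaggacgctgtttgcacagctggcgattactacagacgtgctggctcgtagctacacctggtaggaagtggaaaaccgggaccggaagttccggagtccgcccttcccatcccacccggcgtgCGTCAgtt
The Denr stretch holds 0 matches and that of Eif2d 2, at 204 and 8 bases before the start, while neither holds the full palindrome TGACGTCA. In the same 250 bases of the 33469 promoters of the table, 18.2% hold TGACG on either strand and 1.59% hold TGACGTCA, of which every copy also contains TGACG. Of the 51 genes with an entry among the translation lists described further on, 22 (43.1%) hold TGACG and 2 (3.92%) TGACGTCA. These shares were not tested, and the lists were not matched to the other promoters in base composition or type of gene. A match describes letters and not a bound site.

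Around the members stand the other factors of initiation and recycling, for which 7 lists with 54 genes were used, all of which had a row and passed the filter. Over SKF, 1 of the 54 was called under SKF+Aβ, which is 1.85% beside 2.08% of all genes tested, and 0 of 54 in each of the other comparisons with SKF. With an unadjusted p under 0.05, edgeR gave 17 of the 54 (31.5%) under SKF+Aβ, 12 (22.2%) with empty CSP added, 15 (27.8%) with CSP-TTK21 added and 8 (14.8%) for CSP-TTK21 alone. In the same order, 22.8%, 19.3%, 19.6% and 7.78% of all genes had such a p, in either direction. Of the list genes with such a p, 14, 10, 14 and 5 were higher than in SKF. The share of all genes by direction was not counted, so this split has no background. DESeq2 called 5, 1, 4 and 0 of the 54 in this order, beside 8.62%, 5.12%, 4.11% and 0.02% of the genes to which it gave an adjusted p, and limma 1, 0, 0 and 0. The 5 genes that DESeq2 called under SKF+Aβ were Eif4a2, Eif5, Abce1 and Clock, which were higher, and Ppp1r15a, which was lower. The median log2 fold change of the lists was 0.11, 0.03, 0.12 and 0.03 in this order, and that of all genes between -0.01 and 0.00. In the 4 comparisons without SKF 0 of the 54 were called, by edgeR, DESeq2 or limma, and edgeR gave 0, 1, 2 and 2 genes with an unadjusted p under 0.05.

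The gene called was Eif4a2, an RNA helicase of the cap-binding complex that is abundant in brain. It had 333 and 374 normalized CPM in SKF, 507 and 556 under SKF+Aβ, 445 and 465 under SKF+Aβ+CSP, 555 and 487 under SKF+Aβ+CSP-TTK21, and 412 and 469 under CSP-TTK21 alone. It rose under SKF+Aβ by a log2 fold change of 0.59 (SE 0.13, adjusted p = 0.0431 by edgeR), with SKF below every other library. The call was lost in 8 of the 10 fits that left out 1 library, with adjusted p-values of up to 0.164, and stayed when either library of SKF+Aβ+CSP-TTK21 was left out. In the same list Eif4ebp1, a repressor of the cap-binding protein, was at 5.08 ± 0.931 in SKF and 2.47 ± 0.668 under SKF+Aβ+CSP-TTK21, with a log2 fold change of -1.03 and an adjusted p of 0.155 by edgeR, and under SKF+Aβ it gave -0.74 with an adjusted p of 0.229 by edgeR.

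In the list of eIF2, its exchange factor eIF2B and eIF5, which bring the initiator tRNA and release it, 0 of 9 were called against SKF by edgeR, the test behind each count that follows. Eif5, the activator of GTP hydrolysis on eIF2, had 206 and 250 normalized CPM in SKF and 262 to 351 elsewhere, and its log2 fold change under SKF+Aβ was 0.53 with an adjusted p of 0.064 by edgeR. Eif2s1, the subunit of eIF2 that is phosphorylated, followed with 0.36 and an adjusted p of 0.163 by edgeR. Among factors for start site selection, subunit joining and other carriers of the initiator tRNA, 0 of 6 were called, and 6 of 6 had positive values over SKF in each of the 3 groups with Aβ and 5 of 6 in CSP-TTK21 alone, all against the same 2 SKF libraries. The furthest was Eif2a, a tRNA carrier apart from the eIF2 complex, with 27.7 ± 2.48 in SKF and 43.4 ± 0.960 under SKF+Aβ+CSP-TTK21 (log2 fold change 0.64, adjusted p = 0.109 by edgeR). Under SKF+Aβ Eif2a gave 0.47 and Eif5b, the GTPase of subunit joining, 0.28, with adjusted p-values of 0.124 and 0.313 by edgeR.

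Of 13 subunits of eIF3, the scaffold on the small subunit, 0 were called, and 6 were above and 7 below SKF under SKF+Aβ. Eif3e reached a log2 fold change of 0.66 under SKF+Aβ+CSP-TTK21 and Eif3j one of 0.59 under SKF+Aβ+CSP, with adjusted p-values of 0.124 and 0.132 by edgeR. Eif3e differed between its SKF libraries, at 41.5 and 65.7 normalized CPM. Of the 6 genes of termination and recycling, the step on which the MCTS1 and DENR pair also acts, 0 were called, and 4 had an unadjusted p under 0.05 under SKF+Aβ, where 22.8% of all genes did. The ribosome splitting ATPase Abce1 had 91.8 and 106 normalized CPM in SKF and 139 and 140 under SKF+Aβ (log2 fold change 0.50, adjusted p = 0.0899 by edgeR). Gspt2, a release factor, gave 0.52 there with an adjusted p of 0.103 by edgeR, and its paralog Gspt1 stood at only 0.401 to 1.71 in all libraries, so reads may be split between the copies.

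Among 6 kinases and phosphatase subunits that set eIF2 phosphorylation 0 were called. Ppp1r15a (GADD34), which guides a phosphatase to eIF2, had 178 and 190 normalized CPM in SKF, 105 and 131 under SKF+Aβ and 109 to 166 in the other groups, and its log2 fold change under SKF+Aβ was -0.64 with an adjusted p of 0.0673 by edgeR. Eif2ak4 (GCN2), the kinase that senses amino acid shortage, gave 0.39 there with an adjusted p of 0.207 by edgeR. The last list holds 3 transcripts described as needing MCTS1 and DENR for reinitiation, of which 0 were called. Clock had 108 and 110 normalized CPM in SKF and 129 to 159 elsewhere, and Atf4, the effector of the integrated stress response, had 377 and 307 in SKF and 233 to 316 elsewhere. In SKF+Aβ the log2 fold change was 0.46 for Clock, 0.38 for Jak2 and -0.35 for Atf4, with adjusted p-values of 0.0745, 0.199 and 0.177 by edgeR. RNA levels do not measure reinitiation itself, for which no data are analysed here.

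**Figure D5:**
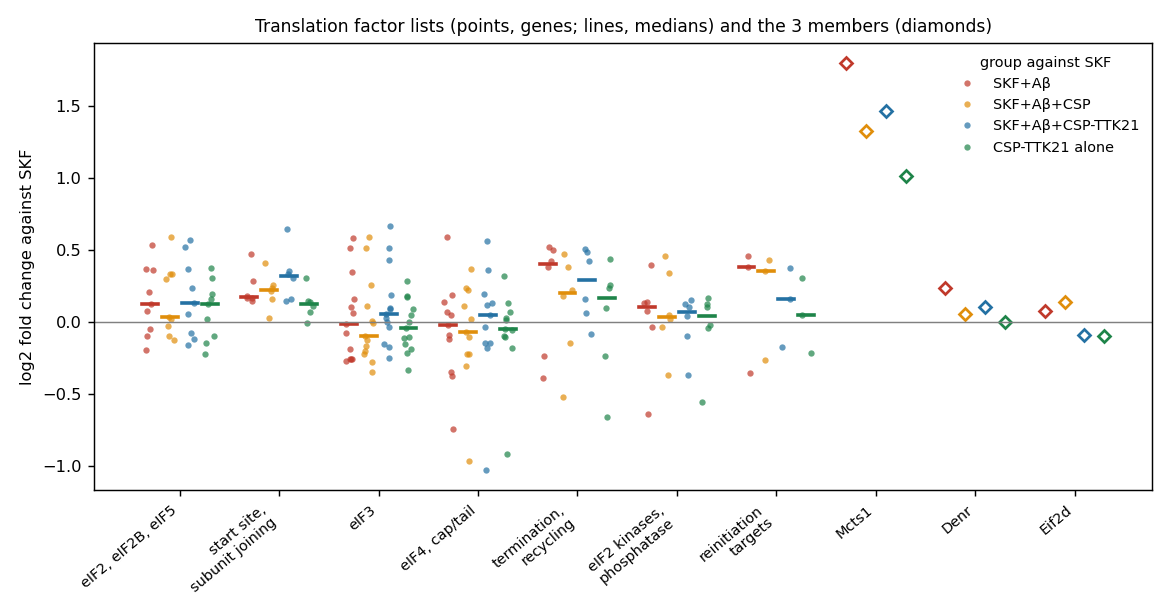
Log2 fold change over SKF (vertical axis) of the 54 genes of the 7 translation lists and of Mcts1, Denr and Eif2d (horizontal axis), colored by the group compared with SKF. Points are genes, short lines list medians and diamonds the 3 members. Mcts1, chosen by this contrast, lies at 1.01 to 1.80, while the genes of the lists lie between -1.03 and 0.66.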

How the data were processed

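For each of the 10 libraries the authors deposited raw counts on rat Ensembl gene identifiers, neither normalized nor pooled. The study's methods give a stranded kit with ribosomal RNA depletion, Trim Galore, Samtools rmdup and TopHat2, with quantification by Cufflinks, Cuffmerge and Cuffdiff, and name both Rnor_6.0 and mm10. The submitters' processing notes list STAR, RSEM, HISAT2 and Salmon, and the human assembly GRCh38, although the gene identifiers are of rat. Which of these tools and assemblies made the deposited counts, and whether strand was used, is not given in the sources used here, so overlapping genes and near-identical copies are uncertain.

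The analysis used edgeR 4.0.16 in R 4.3.3. The filterByExpr function kept 15032 genes, TMM factors were applied, and 1 quasi-likelihood fit used all 10 libraries with a mean per group. A call required an adjusted p (Benjamini-Hochberg) under 0.05, in 8 comparisons. Normalized CPM use TMM-scaled totals, and log2 CPM for correlations a prior count of 2. Mcts1 was not tested against SKF. Groups and replicate numbers come from the labels, which do not say whether libraries are from separate animals, so p-values measure the spread between these libraries. Replicates differed by more than counting noise (chi-square per degree of freedom 4.97 to 12.6). Intervals of counts cover counting error only. The script was tested on simulated data. Alternatives used DESeq2 1.42.0, limma 3.58.1, other scalings and filters, a replicate block, the compared libraries alone, and each library left out.

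The members and lists were chosen with earlier results of these data known. Named genes were the members, called genes of the lists, the 2 largest changes of each list in SKF+Aβ against SKF, with Atf4 and Gspt1 among the 2 largest of their lists in another comparison with SKF, the 5 genes most correlated with each member (the first 2 are given for Denr and Eif2d), and those of the nearest 3 RefSeq neighbours on each side that have a row in the table.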

Additional observations from a re-analysis of the deposited data

How the results depend on the processing

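Of 410 values of the tested member results under other settings, without the comparisons of Mcts1 with SKF that chose the gene, 389 kept their side of the threshold and, for fold changes, their direction, 21 changed sign, and 0 passed the threshold. Without a replicate, Mcts1 in SKF+Aβ+CSP-TTK21 against SKF+Aβ+CSP ran from -0.224 to 0.430 (log2). Denr ran from -0.0457 to 0.118 in SKF+Aβ+CSP against SKF, -0.143 to 0.106 in CSP-TTK21 alone against SKF, -0.0348 to 0.129 in SKF+Aβ+CSP-TTK21 against SKF+Aβ+CSP and -0.0234 to 0.245 in SKF+Aβ+CSP-TTK21 against CSP-TTK21 alone. Eif2d ran from -0.181 to 0.259 in SKF+Aβ against SKF, -0.249 to 0.0175 in CSP-TTK21 alone against SKF, -0.139 to 0.301 in SKF+Aβ+CSP against SKF+Aβ, -0.367 to 0.0734 in SKF+Aβ+CSP-TTK21 against SKF+Aβ and -0.126 to 0.160 in SKF+Aβ+CSP-TTK21 against CSP-TTK21 alone. With upper quartile factors Denr in CSP-TTK21 alone against SKF was 0.00812, and Eif2d in SKF+Aβ+CSP-TTK21 against CSP-TTK21 alone was -0.0253, with at least 10 counts in every library -0.00300 and with only the compared libraries -0.000474. The causes were not tested.

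The count of list genes called in SKF+Aβ against SKF was 1, and 4 without a filter, 5 with DESeq2, 0 with only the compared libraries, 0 with a log2 limit of 1.5 and 0 to 1 without a replicate. It was 0, and 1 without a filter or with DESeq2, in SKF+Aβ+CSP against SKF. It was 0, and 4 without a filter, 4 with DESeq2 and 0 to 2 without a replicate, in SKF+Aβ+CSP-TTK21 against SKF, and 1 without a filter in CSP-TTK21 alone against SKF. The adjusted p of the Mcts1 F-test ran from 0.152 to 0.997. Replicate numbers were not shown to pair libraries, with r from -0.07 to 0.24 between deviations of same-numbered libraries. With the replicate block the list count in SKF+Aβ against SKF was 1, and 0 members were called. All-gene calls there were 312, and 425 with the replicate block, 1311 without a filter, 818 with DESeq2, 350 with limma, 22 with a log2 limit of 1.5 and 12 with only the compared libraries. They fell to 11 without SKF replicate 1, 174 without SKF replicate 2, 1 and 13 without SKF+Aβ replicate 1 or 2, 26 without either SKF+Aβ+CSP replicate and 181 without CSP-TTK21 alone replicate 1, and were 226 to 301 without another library. In SKF+Aβ+CSP against SKF they were 3, and 7 with the replicate block, 754 without a filter, 54 with at least 10 counts in every library, 456 with DESeq2, 8 with limma and 1 to 13 without a library. In SKF+Aβ+CSP-TTK21 against SKF they were 1, and 108 with the replicate block, 902 without a filter, 330 with DESeq2, 335 without SKF replicate 2 and 0 to 1 without another library. In CSP-TTK21 alone against SKF they were 0, and 157 without a filter and at most 3 under the other settings. In the comparisons without SKF they were 0, and 63 to 307 without a filter and at most 50 otherwise, with only the compared libraries in SKF+Aβ+CSP-TTK21 against SKF+Aβ+CSP, where the replicate block gave 14. DESeq2 gave no adjusted p for Eif2d in SKF+Aβ+CSP-TTK21 against SKF.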
